A study of Mus musculus with 31 samples.

Results

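The mRNAs described here were 10 terminal oligopyrimidine (TOP) mRNAs whose products are not ribosomal proteins: Eef1a1, Eef1b2, Eef1d, Eef1g, Eef2, Eif4b, Pabpc1, Rack1, Naca and Tpt1. They were chosen by name as members of the TOP class, and each symbol was matched to its Entrez gene ID. All 10 had a row in both deposited tables, among 20704 genes counted in ribosome-protected fragments (RPFs) and 24593 counted in total RNA, and all 10 passed the filters on low counts. Footprints and total RNA came from the same lysates of a mouse skin squamous cell carcinoma line, and the question was how translation of these mRNAs changed under proteasome inhibition with or without the integrated stress response (ISR). All cells carried HRasG12V. The labels give their TgfbrII genotype as fl/fl, whereas the paper's list of cell lines gives D/D, the deleted form, and the files used here do not settle which holds. In all of them the endogenous eIF2α gene had been ablated and replaced by a PGK-driven, myc-tagged transgene. S51 cells carried wild-type eIF2α and were ISR-competent, and S51A cells carried eIF2α that cannot be phosphorylated at serine 51 and were ISR-null. Each genotype was cultured with DMSO vehicle or with 100 nM bortezomib, a proteasome inhibitor, for 4.5 h according to the labels. Each genotype was grown from clones of single cells, and which clone a library came from is not given in the sources used here, so genotype and clone cannot be told apart. RPF libraries numbered 3 for S51 vehicle and 4 for each other group, and total RNA libraries numbered 4 in every group.

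TOP mRNAs begin with a C followed by an unbroken run of pyrimidines directly at the cap, and they code mostly for ribosomal proteins and for factors of translation. The kinase mTORC1 keeps them on ribosomes, and when mTORC1 is inhibited the repressor LARP1 and the eIF4E-binding proteins hold them off ribosomes while the mRNAs themselves are preserved. Among the mRNAs here, eEF1A, eEF1B and eEF2 are the elongation factors that bring aminoacyl-tRNA to the ribosome, recharge eEF1A with GTP and move the ribosome along the mRNA.

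The start of the transcript is what defines the class, so annotated starts are shown for the mRNAs that had a pyrimidine run at or near one. Windows of 30 bases (RefSeq genome GRCm38.p6, 5′ to 3′ on the strand of the gene) are given, with the first 10 bases upstream of the run and with capitals marking a C and the pyrimidines that follow it without a break, at least 4 of them. GENCODE vM21 starts were searched for 7 of the 10 mRNAs, and in Rack1, Eef1b2 and Tpt1 an annotated transcript began with the run. The transcript was protein-coding in Rack1 (chr11:48800350-48800379, plus strand) and Eef1b2 (chr1:63177120-63177149, plus strand), and carried a retained intron in Tpt1 (chr14:75845321-75845350, plus strand). In Eef2 (chr10:81176636-81176665, plus strand), Eif4b (chr15:102073773-102073802, plus strand) and Eef1a1 (chr9:78481652-78481681, minus strand) the first run began 16, 11 and 54 bases into the RefSeq transcript.
Rack1: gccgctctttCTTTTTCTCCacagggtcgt
Eef1b2: gctctgggtcCTTTTTTTCCCTCagcgctg
Tpt1: ccgcgtcggcCTTTTCCgcccgctcccccc
Eef2: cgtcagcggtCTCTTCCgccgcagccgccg
Eif4b: cgccgcgccaCCCCCTCgcgctgctttacg
Eef1a1: cttggacgttCTTTTTCgcaacgggtttgc
Of 132670 distinct GENCODE transcript starts, 2.04% began with such a run. That is a share of starts and not of genes, whereas an mRNA was listed if any of its annotated starts did so. Of 32851 RefSeq starts, 59.9% had a run beginning within the first 60 bases. A run further in was therefore no mark of the class, and the files used here do not say which start these cells used. Naca (chr10:128035346-128048637) had no such run within the first 60 bases of its RefSeq transcript. Eef1d (chr15:75894796-75909784), Eef1g (chr19:8967041-8978180) and Pabpc1 (chr15:36595658-36609581) were not among the RefSeq sequences used, and their GENCODE starts were not searched.

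RPF libraries held 1038826 to 4902237 counts in coding sequences and total RNA libraries 18758668 to 22994713 counts. Keratinocyte markers were abundant (Krt5 3789 to 5891 CPM in total RNA, where CPM scales each library to the same total), and of 6 markers of other cell types the highest was Cd68 with 3.42 to 7.04 CPM. One library stood apart: S51 vehicle RPF replicate 2 had a median correlation of 0.949 with the rest of its group, the lowest of all RPF libraries, and held 341 CPM of Tpt1, 514 CPM of Naca and 912 CPM of Eef1b2, below both other S51 vehicle libraries. Results that rest on it are given with and without it, and in TE the total RNA library of that number was left out with it. The study calls its replicates technical in one place and independent in another, so p-values measure the spread between these libraries, which may be technical. RPF and total RNA levels are CPM scaled by the TMM method, so every change is relative to the bulk of genes in a library and a fall shared by all mRNAs would leave no trace. Translational efficiency (TE) is the RPF level of a gene divided by its total RNA level, and log2 fold changes carry their SE. The test throughout was the quasi-likelihood F test of edgeR. Its p-values were adjusted by the Benjamini-Hochberg method over all genes tested, 9457 for RPF and TE and 11708 for total RNA, and a gene passed with an adjusted p below 0.05.

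As a pool, these mRNAs lost footprints with bortezomib while their total RNA rose. Together the 10 mRNAs took 2.69% ± 0.05 of all RPF counts in S51 vehicle (SD, n = 3) and 1.10% ± 0.06 in S51 bortezomib (n = 4). In S51A cells the share was 2.56% ± 0.04 in vehicle and 1.74% ± 0.11 in bortezomib (n = 4 each). In total RNA the same mRNAs took 2.63% ± 0.05 of the counts in S51 vehicle and 3.48% ± 0.11 in S51 bortezomib, and 2.29% ± 0.03 and 2.95% ± 0.11 in S51A cells. Vehicle and bortezomib libraries did not overlap in either kind of library or either genotype. Eef1a1 and Eef2 weigh most in these shares, with 28209 and 16311 of 75153 RPF counts in S51 vehicle replicate 1. Single mRNAs did not all follow: footprints of Naca and Eef1d did not pass as lower in either genotype. The shares are of raw counts, and scaled by library size alone the total RNA of Tpt1, Pabpc1 and Naca did not pass in S51.

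**Figure D1:**
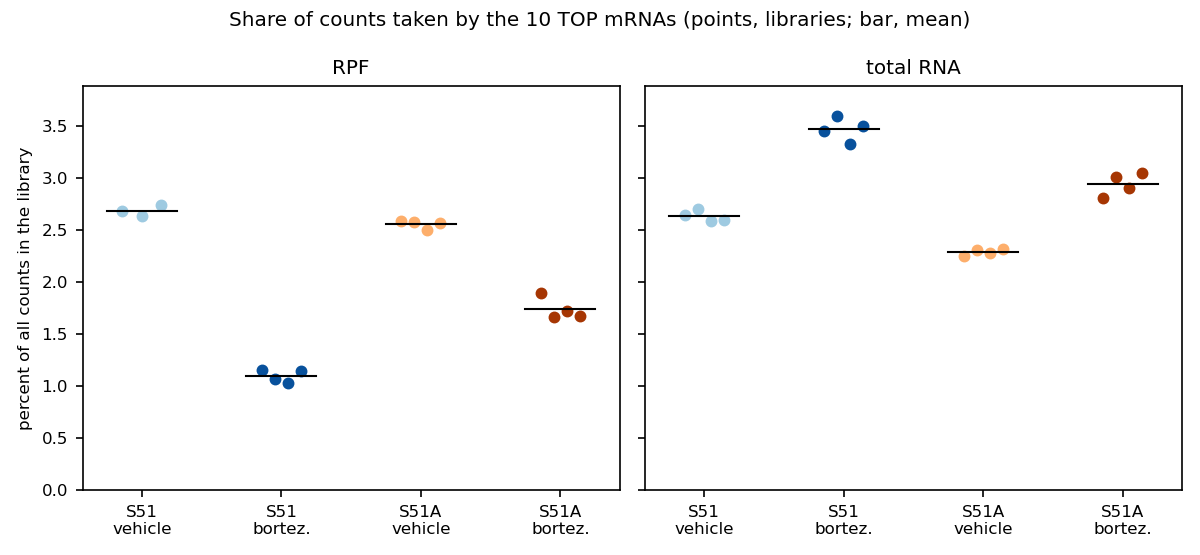
Percent of all counts in a library taken by the 10 TOP mRNAs (vertical axis) in each RPF library (left) and total RNA library (right), by group; points are libraries and bars are group means. The S51 bortezomib libraries lie lowest in RPF (1.03% to 1.16%) and highest in total RNA (3.33% to 3.60%).

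In S51 cells, bortezomib lowered the TE of 9 of the 10 mRNAs and raised none, where 7.24% of all genes tested were lower. The median change of the 10 was -1.46 on the log2 scale, beside a median of -0.00 over all genes, and 8 of the 9 fell by more than 1.5-fold (4.23% of all genes). Footprints alone were lower for 8 of the 10 (16% of all genes) with a median log2 fold change of -1.20. Total RNA was higher for 10 of 10 (29.7% of all genes), with a median of 0.29 and none above 2-fold (1.96% of all genes). The mRNA without a call in TE was Naca, and without S51 vehicle replicate 2 it passed as well, which made 10 of 10 lower (6.34% of all genes in that fit).

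In ISR-null S51A cells, bortezomib lowered the TE of 8 of the 10 mRNAs (1.24% of all genes), with a median log2 fold change of -0.999. Eef1d and Naca did not pass. Footprints were lower for 8 of the 10 (11.4% of all genes), with a median of -0.47, and 4 of those passed 1.5-fold (6.67% of all genes). Total RNA was higher for 9 of the 10 (27.5% of all genes), with a median of 0.34, and Pabpc1 was the exception with a log2 fold change of -0.01 ± 0.08.

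The response was tested for a difference between genotypes as the bortezomib response of S51 minus that of S51A. In TE it was more negative in S51 for 7 of the 10 mRNAs (1.48% of all genes), with a median difference of -0.57, and in RPF for 7 of the 10 (1.31% of all genes), also with a median of -0.57. The 7 mRNAs were the same in both: Eef1a1, Eef1b2, Eef1g, Eef2, Rack1, Pabpc1 and Eif4b. When log2 TE was computed for each lysate number and tested by limma, 3 of the 7 passed (Eef1a1, Eef2 and Eif4b), where 0.127% of all genes were lower and 0.0318% higher, and the adjusted p of the others was 0.384 for Eef1b2, 0.156 for Eef1g, 0.147 for Rack1 and 0.0964 for Pabpc1. In total RNA the response differed for 4 mRNAs, higher in S51 for Eef2 (0.25 ± 0.06) and Eif4b (0.29 ± 0.05), where 12% of all genes were higher, and lower for Eef1b2 (-0.15 ± 0.05) and Tpt1 (-0.16 ± 0.04), where 9.58% were lower.

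**Figure D2:**
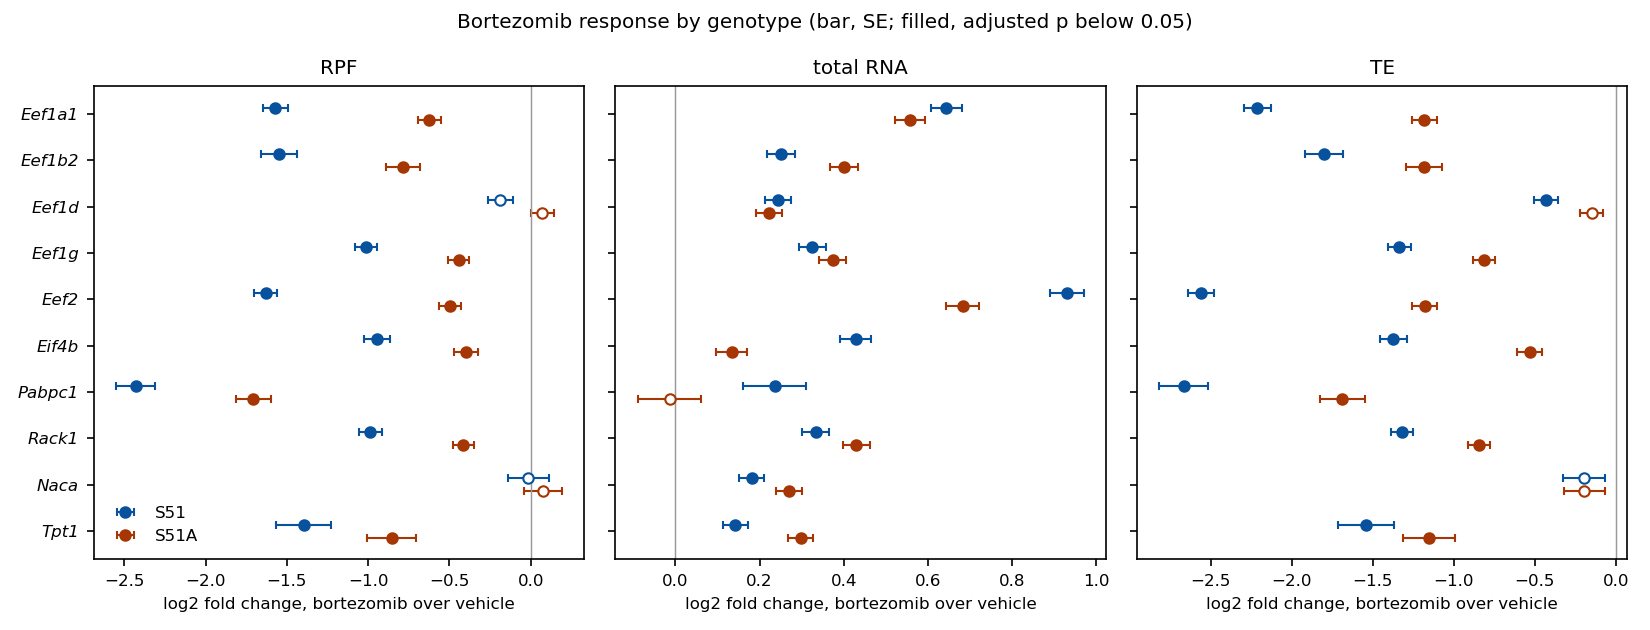
Log2 fold change of bortezomib over vehicle (horizontal axis) for each of the 10 mRNAs in RPF, total RNA and TE; blue is S51, brown is S51A, bars are the SE, and filled points had an adjusted p below 0.05. RPF and TE points lie to the left of 0 for most mRNAs and further left in S51, Naca and Eef1d lie nearest to 0, and total RNA points lie to the right of 0 except for Pabpc1 in S51A.

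The groups that share controls are set beside each other here with their own values. Between genotypes in vehicle, no mRNA passed in TE by edgeR, DESeq2 or limma (by edgeR 0.0317% of all genes were lower and 0.0740% higher in S51A), and log2 differences ran from -0.04 for Eef1d to 0.52 for Tpt1. At an unadjusted edgeR p below 0.05, 4 of the 10 were higher in S51A (8.30% of all genes) and 0 were lower (6.40%). Without S51 vehicle replicate 3, 3 of them were higher in S51A (2.97% of all genes): Tpt1, Naca and Eef1a1. In vehicle footprints, Eif4b (-0.56 ± 0.08) and Eef1d (-0.24 ± 0.07) were lower in S51A (13.8% of all genes) and Tpt1 was higher (0.63 ± 0.16, 14.8% of all genes). Eef1g was lower too (-0.20) by DESeq2 (adjusted p = 0.0270), and by edgeR with RLE size factors (adjusted p = 0.0400) or library sizes alone (0.0386). With only the groups compared, Eef1d did not pass (-0.24, edgeR adjusted p = 0.0777). Without S51 vehicle replicate 2, Eef1d did not pass (-0.17, edgeR adjusted p = 0.0532), Pabpc1 did (-0.26, edgeR adjusted p = 0.0317), and Tpt1 had 0.38 (edgeR adjusted p = 0.00256). Vehicle total RNA was lower in S51A for 9 of the 10 (32.4% of all genes) and higher for Tpt1 (31.4%), with log2 differences from -0.55 for Eif4b to 0.11 for Tpt1. Under bortezomib, TE was lower in S51 than in S51A for 9 of the 10 (5.09% of all genes), from -1.44 for Eef2 to -0.24 for Eef1d. The call of Eef1d (edgeR adjusted p = 0.0335) was lost with library sizes alone (-0.14, edgeR adjusted p = 0.241), without the filter on low counts (edgeR adjusted p = 0.0706) and by limma on log2 TE (adjusted p = 0.0958). It was also lost without S51 bortezomib replicate 2 or 3 or S51A bortezomib replicate 1, 3 or 4 (edgeR adjusted p from 0.0758 to 0.112). Naca had -0.32 ± 0.13 (edgeR adjusted p = 0.133, or 0.00141 without S51 vehicle replicate 2). That replicate is in neither group compared here, and its removal left the difference at -0.32. With only the groups compared, Naca passed as well (-0.31, edgeR adjusted p = 0.00976). Footprints under bortezomib were lower in S51 for 7 of the 10 (16.6% of all genes), and total RNA was higher for 7 (32.4% of all genes) and lower for Tpt1 (33.3%).

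Of the eEF1 complex, Eef1a1, Eef1b2 and Eef1g fell in footprints in both genotypes and Eef1d passed in neither. Eef1a1, the factor that carries aminoacyl-tRNA to the ribosome, had RPF levels of 9993, 8667 and 10619.6 CPM in S51 vehicle and of 3346, 3212, 3077 and 3517 CPM in S51 bortezomib, 2.97-fold lower (log2 fold change -1.57 ± 0.08, edgeR adjusted p = 1.77e-12). In S51A cells it went from 9691 to 10226.3 CPM in vehicle to 6122 to 7319.8 CPM in bortezomib, 1.54-fold lower (edgeR adjusted p = 1.16e-06). No bortezomib library reached a vehicle library in either genotype. Its total RNA was 1.56-fold higher with bortezomib in S51 and 1.47-fold higher in S51A, so that TE was 4.64-fold lower in S51 (-2.21 ± 0.08, edgeR adjusted p = 7.60e-21) and 2.27-fold lower in S51A (-1.18 ± 0.08). The difference between genotypes was -1.03 ± 0.11 in TE (edgeR adjusted p = 4.01e-07). Eef1a1 has processed pseudogene copies, as have several of these genes, and reads were kept only where they mapped uniquely, so its level may be undercounted while its change compares like with like.

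Eef1b2, the nucleotide exchange subunit that recharges eEF1A, had RPF levels of 1219, 912 and 1305 CPM in S51 vehicle and 437, 377, 376 and 378 CPM in S51 bortezomib. The groups did not overlap, and footprints were 2.93-fold lower (-1.55 ± 0.11). In S51A they were 1.73-fold lower. TE fell by 1.80 ± 0.12 on the log2 scale in S51 and by 1.19 ± 0.11 in S51A. The difference of -0.61 ± 0.16 (edgeR adjusted p = 0.0342) lay near the threshold. It no longer passed in 11 of 16 fits that left out 1 library number, with edgeR adjusted p from 0.000225 to 0.101. The lowest p was that without S51 vehicle replicate 2, where the difference was larger (-0.76). By limma on log2 TE, with all libraries, it did not pass (-0.59, limma adjusted p = 0.384). Eef1g, the structural subunit of the same exchange complex, had 2906, 3209 and 2783 RPF CPM in S51 vehicle and 1574, 1425, 1410.1 and 1472 in S51 bortezomib. These groups were apart too, with a 2.02-fold fall in RPF and a 2.53-fold fall in TE (-1.34 ± 0.07, edgeR adjusted p = 1.68e-16), against 1.76-fold in TE in S51A.

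Eef1d, the other subunit with exchange activity, had 822, 926 and 795 RPF CPM in S51 vehicle and 783, 729.8, 687 and 779 CPM in S51 bortezomib, and the log2 fold change of -0.19 ± 0.08 did not pass (edgeR adjusted p = 0.0634), although the groups did not overlap. It depended on which vehicle library was left out: without S51 vehicle replicate 2 it was -0.12 (edgeR adjusted p = 0.194), and without S51 vehicle replicate 3 it was -0.26 and passed (edgeR adjusted p = 0.0200). It also passed when at least 10 counts were required in every library (-0.22, edgeR adjusted p = 0.0304). Its total RNA rose 1.18-fold in S51, and TE fell by 0.43 ± 0.07 on the log2 scale (edgeR adjusted p = 8.43e-05). In S51A, TE changed by -0.15 ± 0.07 (edgeR adjusted p = 0.738), and the difference between genotypes, -0.28 ± 0.10, did not pass either (edgeR adjusted p = 0.205). By DESeq2 that difference passed (-0.30, DESeq2 adjusted p = 0.0271), so its call depended on the method. Eef1d has several annotated isoforms that a count per gene does not separate. Within a library, the ratio of Eef1b2 to Eef1d footprints was 0.985 to 1.64 in S51 vehicle and 0.485 to 0.559 in S51 bortezomib, and in S51A it was 1.74 to 1.90 and 0.842 to 1.20. The ratio of Eef1g to Eef1d footprints likewise went from 3.46 to 3.53 in S51 vehicle to 1.89 to 2.05 in S51 bortezomib. In total RNA the ratio of Eef1b2 to Eef1d was 2.63 to 2.81 in S51 vehicle and 2.66 to 2.75 in S51 bortezomib, which overlapped, but in S51A it was higher with bortezomib, at 2.79 to 2.92 and 3.11 to 3.29. The total RNA ratio of Eef1g to Eef1d was likewise higher with bortezomib without overlap, at 5.33 to 5.66 and 5.73 to 5.89 in S51 and at 5.03 to 5.39 and 5.61 to 6.04 in S51A. That of Eef1a1 to Eef1d was also higher without overlap, at 22.7 to 24.5 and 30.4 to 31.98 in S51 and at 21.9 to 24.3 and 27.6 to 30.96 in S51A. Total RNA ratios to Eef1d were thus higher with bortezomib or overlapped, whereas the footprint ratios were lower. These ratios were chosen after the values were seen and were not tested.

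Eef2, the translocase that moves the ribosome by 1 codon, had the largest rise in total RNA of the 10 mRNAs and one of the largest falls in TE. Its RPF levels were 5778, 6601 and 5699 CPM in S51 vehicle and 2072, 1923, 1724 and 2067 CPM in S51 bortezomib. Its total RNA went from 3327 to 3539.9 CPM to 6292 to 6914 CPM, which was 1.91-fold higher. Footprints and mRNA thus moved in opposite directions with no overlap of libraries, and TE was 5.90-fold lower (-2.56 ± 0.08, edgeR adjusted p = 6.60e-23). In S51A cells footprints went from 5223 to 5553 CPM to 3672 to 3925 CPM, mRNA rose 1.60-fold, and TE was 2.27-fold lower (-1.18 ± 0.08, edgeR adjusted p = 6.93e-13). The difference between genotypes was -1.38 ± 0.11 in TE (edgeR adjusted p = 3.05e-10), the most negative of the 10.

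**Figure D3:**
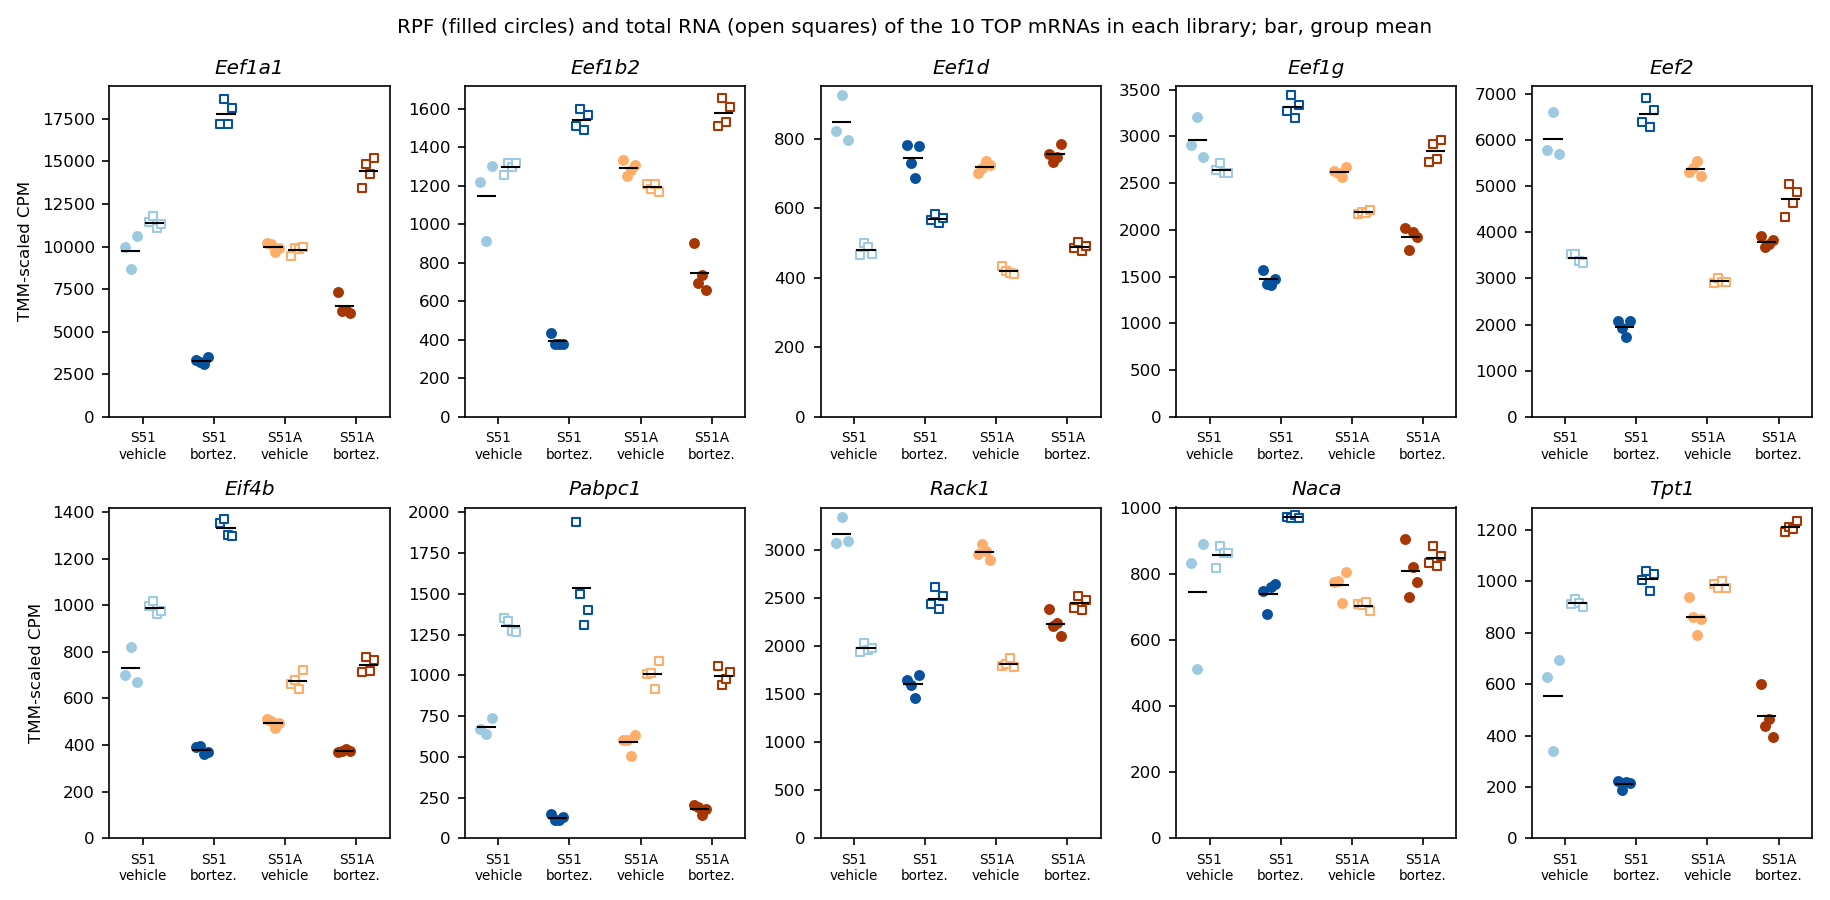
TMM-scaled CPM (vertical axis, from 0, own scale in each panel) of each of the 10 mRNAs in every library by group; filled circles are RPF, open squares total RNA, and bars group means. In Eef2 the circles fall from 5699 to 6601 CPM in S51 vehicle to 1724 to 2072 CPM in S51 bortezomib while the squares rise, and in Naca the circles of the groups overlap.

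Pabpc1 and Eif4b act at initiation. Pabpc1 codes for the main cytoplasmic poly(A)-binding protein, and its fold changes in RPF and TE were the most negative of the 10 in both genotypes. It had 673, 638 and 739 RPF CPM in S51 vehicle and 151, 112, 113 and 132 CPM in S51 bortezomib, 5.39-fold lower (-2.43 ± 0.12, edgeR adjusted p = 2.73e-12). In S51A cells it went from 508 to 635 CPM to 142 to 203 CPM, 3.26-fold lower (-1.71 ± 0.11, edgeR adjusted p = 2.56e-10). The bortezomib libraries of both genotypes lay far below their vehicle libraries. Total RNA was 1.18-fold higher in S51, where replicate 1 held 1939 CPM and the other bortezomib libraries 1312 to 1498 CPM, against 1266 to 1349 CPM in vehicle, so the groups overlapped. Without S51 bortezomib replicate 1 that rise did not pass (0.10, edgeR adjusted p = 0.0767). TE was 6.36-fold lower in S51 (-2.67 ± 0.15) and 3.23-fold lower in S51A (-1.69 ± 0.14), and the difference was -0.98 ± 0.20 (edgeR adjusted p = 0.00589). By limma on log2 TE that difference did not pass (-0.93, limma adjusted p = 0.0964). In footprints the difference was -0.72 ± 0.16 (edgeR adjusted p = 0.0180), and it did not pass without S51 bortezomib replicate 3 (-0.67, edgeR adjusted p = 0.0610).

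Eif4b, which stimulates the helicase eIF4A during scanning, had 699.996, 821 and 669 RPF CPM in S51 vehicle and 393, 395, 361 and 369 CPM in S51 bortezomib. In S51A vehicle it had 474 to 509.8 CPM and in S51A bortezomib 369 to 383 CPM. The bortezomib libraries of the genotypes lay on the same level (0.01 ± 0.08 for S51 over S51A), whereas the vehicle libraries did not overlap. Total RNA of Eif4b had the largest difference between genotypes under bortezomib of the 10, at 1297 to 1368 CPM in S51 bortezomib and 715 to 776 CPM in S51A bortezomib, 1.79-fold (0.84 ± 0.04, edgeR adjusted p = 1.14e-15). TE was 2.59-fold lower with bortezomib in S51 (-1.37 ± 0.08) and 1.45-fold lower in S51A (-0.53 ± 0.08), a difference of -0.84 ± 0.11 (edgeR adjusted p = 1.77e-05).

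Rack1 codes for a scaffold protein of the small ribosomal subunit, and its RefSeq transcript starts at the pyrimidine run printed above. It had 3069, 3344 and 3088 RPF CPM in S51 vehicle and 1641, 1598, 1462 and 1693 CPM in S51 bortezomib. The groups were well apart, with RPF 1.98-fold lower and TE 2.50-fold lower (-1.32 ± 0.07, edgeR adjusted p = 1.86e-16). In S51A cells TE was 1.80-fold lower (-0.85 ± 0.07), and the difference between genotypes was -0.47 ± 0.10 (edgeR adjusted p = 0.00505). By limma on log2 TE that difference did not pass (-0.47, limma adjusted p = 0.147).

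Naca codes for the alpha subunit of the nascent polypeptide-associated complex, which binds chains as they leave the ribosome, and its footprints passed in neither genotype. Its RPF levels were 834, 514 and 892 CPM in S51 vehicle and 749, 680.1, 760.3 and 771 CPM in S51 bortezomib. The bortezomib libraries lay between replicate 2 and the other vehicle libraries, and the log2 fold change was -0.01 ± 0.13 (edgeR adjusted p = 0.947, 95% interval -0.26 to 0.23). Without S51 vehicle replicate 2 it was -0.22 in RPF (edgeR adjusted p = 0.0266) and -0.41 in TE (edgeR adjusted p = 0.000321), in place of -0.20 ± 0.13 in TE with it (edgeR adjusted p = 0.394). In S51A, RPF levels were 712 to 807 CPM in vehicle and 732 to 907 CPM in bortezomib, which overlapped, and TE changed by -0.20 ± 0.12 (edgeR adjusted p = 0.918). Total RNA of Naca rose 1.13-fold in S51 and 1.21-fold in S51A. A long muscle isoform of Naca shares its gene ID, and counts per gene do not separate it.

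Tpt1 codes for the translationally controlled tumour protein, a growth-related protein whose mRNA is a long-known TOP mRNA. It had 629.5, 341 and 693 RPF CPM in S51 vehicle and 222, 189, 218 and 213 CPM in S51 bortezomib. All bortezomib libraries lay below replicate 2, the lowest vehicle library, and footprints were 2.63-fold lower (-1.40 ± 0.17, edgeR adjusted p = 1.81e-06). In S51A they went from 791 to 939 CPM to 396 to 601 CPM, 1.81-fold lower. TE fell by 1.54 ± 0.17 in S51 and by 1.15 ± 0.16 in S51A on the log2 scale, and the difference of -0.39 ± 0.24 did not pass (edgeR adjusted p = 0.552, 95% interval -0.85 to 0.07). Without S51 vehicle replicate 2 the difference was -0.64 in TE (edgeR adjusted p = 0.00828) and -0.79 in RPF (edgeR adjusted p = 5.07e-05), in place of -0.54 ± 0.23 in RPF with it (edgeR adjusted p = 0.238). Whether the genotypes differ in Tpt1 therefore depended on 1 library number.

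**Figure D4:**
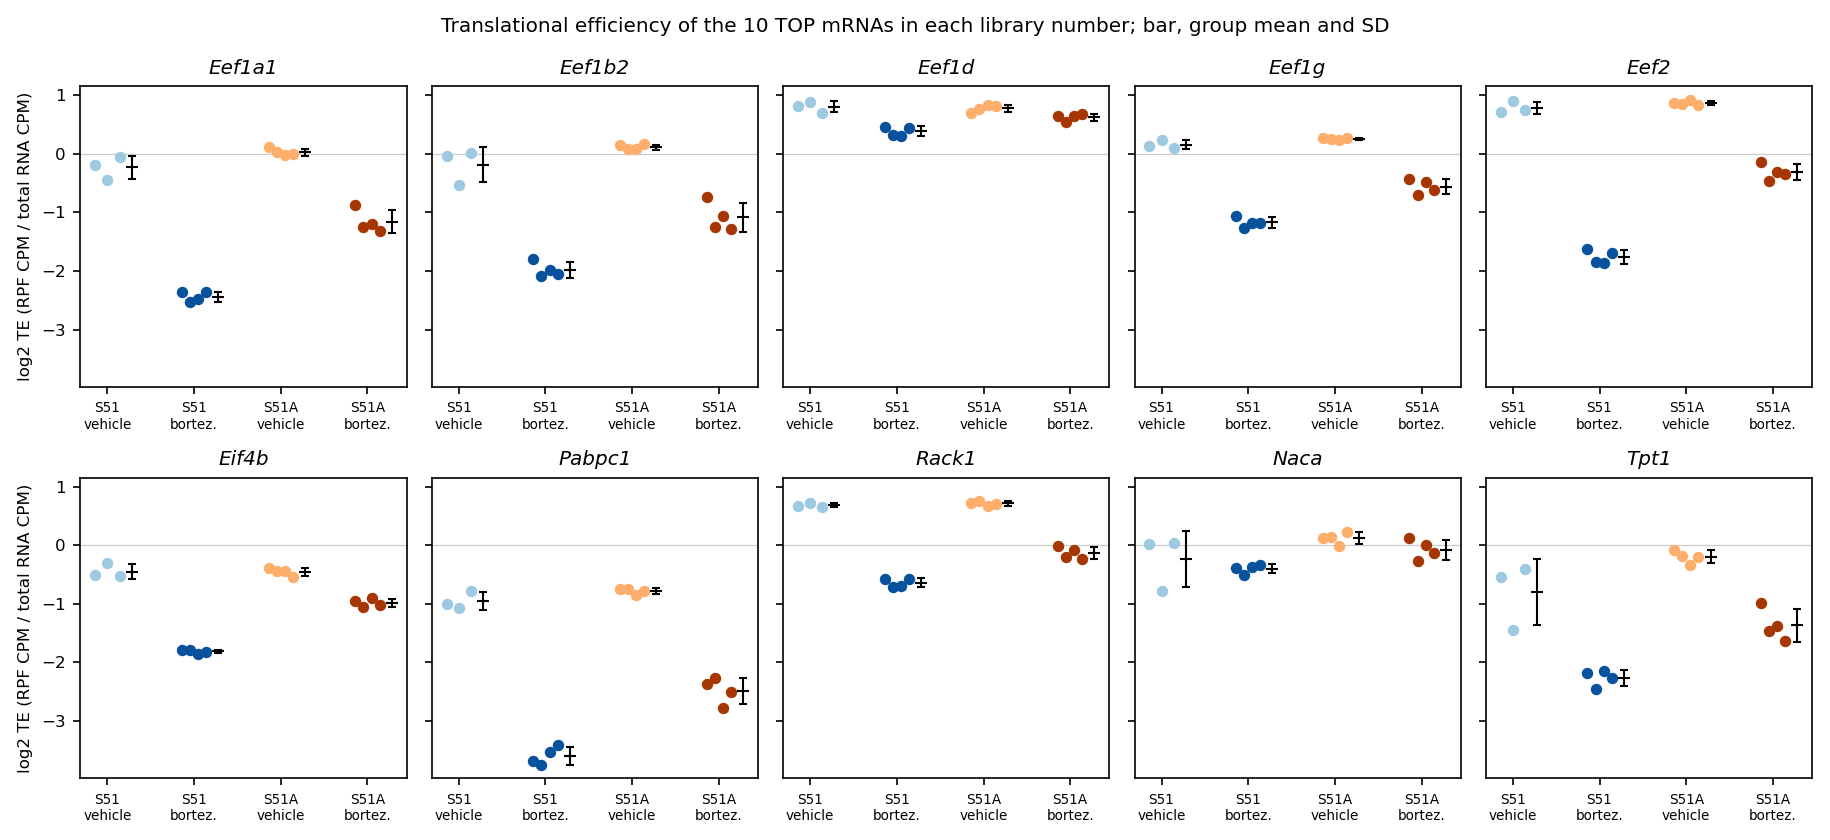
Log2 TE (vertical axis, RPF CPM over total RNA CPM) of each of the 10 mRNAs in every library number with both kinds of library; points are numbers, and the black bars are group means with their SD. S51 bortezomib points lie below S51A bortezomib points without overlap in all 10 panels, and S51 vehicle replicate 2 lies low in Tpt1 (-1.45) and Naca (-0.79).

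In single library numbers, log2 TE was lower in S51 bortezomib than in S51A bortezomib without overlap for 10 of 10 mRNAs (9.08% of all genes). In S51 cells the bortezomib values lay below the vehicle values without overlap for 9 of 10 (9.22% of all genes), and those of Naca overlapped, at -0.79 to 0.04 and -0.51 to -0.33. For Eef1a1 the means were -0.23 ± 0.19 in S51 vehicle (SD, n = 3), 0.03 ± 0.06 in S51A vehicle, -1.16 ± 0.20 in S51A bortezomib and -2.44 ± 0.09 in S51 bortezomib (n = 4 each). For Eef2 they were 0.79 ± 0.10, 0.87 ± 0.04, -0.31 ± 0.13 and -1.76 ± 0.12 in the same order, and for Pabpc1 -0.95 ± 0.15, -0.78 ± 0.05, -2.48 ± 0.22 and -3.59 ± 0.15. The vehicle groups overlapped in Eef2 and Pabpc1, whereas those of Eef1a1 did not.

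Other mRNAs of the translation machinery were counted in the same fits. Of 77 ribosomal proteins tested, 76 fell in TE with bortezomib in S51 (7.24% of all genes) and 74 in S51A (1.24%). Their medians were -1.18 and -0.77 beside -1.46 and -0.999 for the 10 mRNAs. The difference between genotypes passed as lower for 30 of the 77 (1.48% of all genes), with a median of -0.44. The values of Eef2, Pabpc1 and Eef1a1 in S51 lay below that of Rps27, the lowest ribosomal protein (-1.88), and those of Naca and Eef1d lay above the highest, Rpl41 (-0.54). Of 9 further mRNAs that have been called TOP candidates, 5 fell in TE in S51 (7.24% of all genes) and 2 in S51A (1.24%), with medians of -0.65 and -0.23. These ran in S51 from -1.84 for Eif3f, a subunit of initiation factor 3, to -0.06 for Eif4a2. Of 14 translation factors outside the class, 2 rose (2.35% of all genes) and 0 fell (7.24%) in TE by edgeR in S51. At an unadjusted edgeR p below 0.05, 3 of these factors were higher (9.22% of all genes) and 0 lower (13.7%). Their median was 0.08, with values from -0.30 for Eif1, which guides start codon choice, to 0.50 for Eif1a, and in S51A 0 of the 14 passed by edgeR, adjusted or not.

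The regulators of the TOP class were themselves measured. Of 15 genes of the mTORC1 and LARP1 pathway, 1 fell (16% of all genes) and 4 rose (14.8%) in footprints with bortezomib in S51. Footprints of Eif4ebp2, an eIF4E-binding protein, fell by 1.65 ± 0.20 on the log2 scale, and those that rose were Ddit4 (2.52 ± 0.19) and Sesn2 (1.85 ± 0.16), both inhibitors of mTORC1 signalling, with Mlst8 (0.63 ± 0.18), a subunit of mTORC1, and Larp4 (0.47 ± 0.09), which binds poly(A) tails. In S51A, Ddit4 (2.53 ± 0.18), Sesn2 (1.58 ± 0.16) and Larp4 (0.31 ± 0.08) rose (9.25% of all genes) and none fell (11.4%). In TE, Eif4ebp2 (-1.51 ± 0.28), Rptor (-0.66 ± 0.11), the substrate-binding subunit of mTORC1, and Larp1 (-0.41 ± 0.10), the TOP repressor, fell in S51 (7.24% of all genes). None rose in TE in S51 (2.35% of all genes). By edgeR, 0 of the 15 passed in S51A, where 1 was higher (1.95% of all genes) and 0 lower (4.58%) at an unadjusted p below 0.05. The response differed between genotypes in TE for Eif4ebp2 (-1.39 ± 0.36, edgeR adjusted p = 0.0335) and Rptor (-0.62 ± 0.15, edgeR adjusted p = 0.0252), where 1.48% of all genes were lower. In vehicle, footprints of 6 of the 15 were lower in S51A (13.8% of all genes) and those of 0 higher (14.8%) by edgeR. The 6 were Eif4ebp1 (-1.63 ± 0.18), Ddit4 (-1.05 ± 0.20), Akt1s1 (-0.70 ± 0.20), Sesn2 (-0.62 ± 0.18), Larp1 (-0.55 ± 0.10) and Eif4ebp2 (-0.45 ± 0.16). The phosphorylation of these proteins was not measured in these libraries. From immunoblots after a longer exposure, the paper reports that bortezomib inhibited the mTORC1 pathway in cells of both genotypes. In its ribosome profiling, by its own thresholds, it also lists genes whose translation fell with bortezomib in S51 and was lower there than in S51A. It reports that this list was enriched for the translational machinery.

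**Figure D5:**
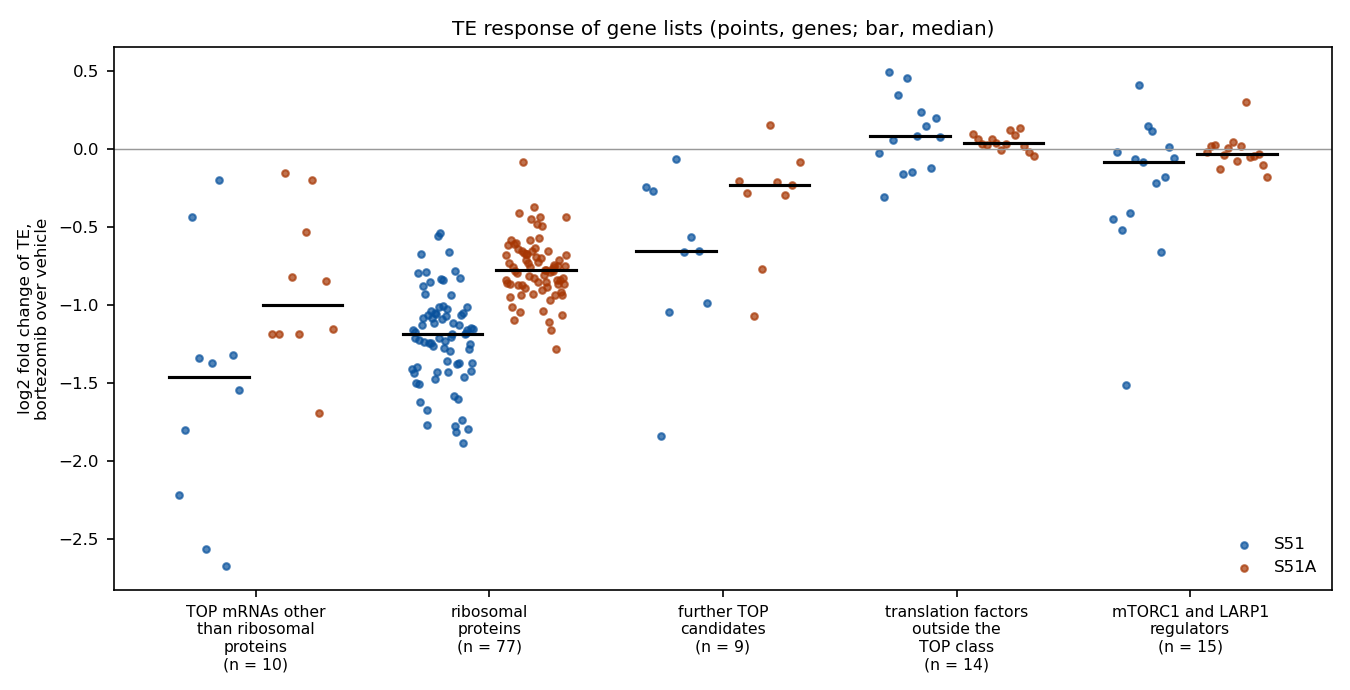
Log2 fold change of TE with bortezomib over vehicle (vertical axis) for the 10 mRNAs, 77 ribosomal proteins, 9 further TOP candidates, 14 translation factors outside the class and 15 regulators; points are genes, blue S51 and brown S51A, and bars are medians. The medians in S51 are -1.46, -1.18, -0.65, 0.08 and -0.08 from left to right.

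Likeness of pattern was measured as Pearson's r between a gene's log2 TE and the mean centred log2 TE of the 10 mRNAs over 15 library numbers, which share their groups and controls. Of 9448 genes ranked, the 10 most alike outside the 10 mRNAs were all ribosomal proteins, with r from 0.989 for Rps2 to 0.998 for Rps18. Among the 50 most alike, 41 were ribosomal proteins, which made up 0.815% of the genes ranked, and 1 was a further TOP candidate, Eif3h. Of the 10 mRNAs, which are part of the mean, Eef1a1 had the highest r (0.998), Eef1d 0.914 and Naca 0.616.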

How the data were processed

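Ribosome footprints and total RNA were sequenced from 31 libraries in 4 groups. The deposited tables hold counts per gene, made by the authors with Bowtie2 on mouse build mm10 after rRNA removal and adapter trimming. Per the file headers, duplicates were marked, repeats were masked and mapping quality was that of unique reads, footprints were limited in length, and repeated total RNA runs were merged. Footprints were counted in coding sequences without the codons next to the start and stop. The labels of some samples had been exchanged, and columns were assigned by the submitters' note on this. Sources call the exposure 4.5 h or slightly shorter.

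Counts were tested in R 4.3.3 with edgeR 4.0.16 (TMM scaling, filterByExpr, quasi-likelihood F test, Benjamini-Hochberg adjustment), with 1 model over all 4 groups for each kind of library and 1 over both kinds for TE, in which TE is the interaction of kind and group. The TE model took the RPF and total RNA libraries of a lysate as independent and gave each gene 1 estimate of spread over both kinds. Deviations from the group mean in both libraries of a lysate number correlated by r of -0.05 to 0.34 (median 0.11). The SE is the log2 fold change over the square root of F, and intervals are 1.96 SE either side. For any gene an SE of TE may thus be too small and its p-value too low, and for Eef1d in S51 the SE lay below that of RPF alone. Limma on log2 TE tested the ratio within lysate numbers. Calls on size used 1.5-fold for RPF and TE and 2-fold for total RNA. TE of single numbers used log2 CPM with a prior count of 2 in fits, and CPM ratios where levels are printed. Gene IDs were matched to RefSeq, for 20687 of 20704 RPF genes and 24569 of 24593 total RNA genes. The scripts were tested on simulated data. Members of 1 group differed by more than sampling noise (chi-square per gene at least 1.66 in RPF and 2.78 in total RNA), so no library was counted as a copy.

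Named genes were the 10 mRNAs, the ends of the range of each other list for TE in S51, the regulators that passed, and, of the 10 genes most alike in TE, those at the ends of their range, since not all of them are reported here. The members and lists were chosen with earlier results of these data known. Alternatives were DESeq2 1.42.0, RLE size factors, library sizes alone, 2 other filters on low counts, the replicate number as a block, only the groups compared, limma 3.58.1 on log2 TE and each library left out. For TE, leaving a library out removed every library of that number. Transgenic Eif2s1 is not described. Sequences were read with pysam 0.24.0 and plots drawn with matplotlib 3.10.9.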

Additional observations from a re-analysis of the deposited data

Results flagged for a closer look

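In 2 of 100 groups of 4 libraries tested among the 10 mRNAs, 1 library lay apart from the rest by Dixon's criterion, where chance gives about 1 in 20. RPF of Eef1a1 was 7319.8 CPM in S51A bortezomib replicate 1 and 6122 to 6258 CPM in the other 3 libraries. RPF of Eef1b2 was 437 CPM in S51 bortezomib replicate 1 and 376 to 378 CPM in the other 3. Groups of 3, such as S51 vehicle RPF, were not tested in this way.

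The bortezomib response differed between genotypes by edgeR in 18 of 30 tests, given as the log2 response of S51 minus that of S51A. These tests cover RPF, total RNA and TE of the same mRNAs, and TE is made from the other measures, so they are not separate results. Of all genes, 1.31% were lower in RPF, 9.58% lower and 12% higher in total RNA, and 1.48% lower in TE. In RPF the differences were -0.94 for Eef1a1, -0.76 for Eef1b2, -0.57 for Eef1g, -1.13 for Eef2, -0.57 for Rack1, -0.72 for Pabpc1 and -0.55 for Eif4b. In total RNA they were -0.15 for Eef1b2, 0.25 for Eef2, -0.16 for Tpt1 and 0.29 for Eif4b. In TE they were -1.03 for Eef1a1, -0.61 for Eef1b2, -0.52 for Eef1g, -1.38 for Eef2, -0.47 for Rack1, -0.98 for Pabpc1 and -0.84 for Eif4b. By limma on log2 TE, only Eef1a1, Eef2 and Eif4b of these passed.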

How the results depend on the processing

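Of 107 counts of mRNAs passed under alternatives other than a left-out library, 106 stayed within 1.5 times. The exception was the difference between genotypes in TE, for which limma on log2 TE passed 3 in place of 7. With 1 library left out, or in TE 1 library number, the count stayed within 1 of the reported one except in vehicle. There it ran from 2 to 5 in RPF, in place of 3, and from 0 to 3 in TE, in place of 0. Both were highest without S51 vehicle replicate 3. Eef1d under bortezomib (TE, S51 over S51A) lost its call in 5 such fits and under 3 other settings, and Eef1b2 lost its total RNA difference without S51A bortezomib replicate 2 (-0.13, edgeR adjusted p = 0.0543). With library sizes alone the median of all genes moved to -0.16 in total RNA and 0.15 in TE for S51 bortezomib, and Tpt1 total RNA changed sign to -0.012 (edgeR adjusted p = 0.734). Pabpc1 (0.366) and Naca (0.413) then lost their adjusted p in S51 total RNA, as did Eif4b in S51A (0.685). In that scaling 47.6% of genes were lower and 16.7% higher in S51 total RNA, and 4.21% and 12.1% in TE, in place of 30.2% and 29.7%, and 7.24% and 2.35%. The 9 TE falls in S51 and 8 in S51A passed there too. Not every pair of same-numbered libraries deviated together by r over 0.1, so the numbers were not taken as pairs: r was -0.16 to 0.26 in RPF, and in total RNA it was 0.0021 to 0.19 with a median of 0.092, above the median of -0.034 for other numbers. The block raised the total RNA calls for the difference between genotypes from 2526 to 3348 genes. With the replicate block 149 of 150 values kept their call, the other being the Pabpc1 total RNA difference (0.24, edgeR adjusted p = 0.0177). Counts limit Pabpc1 most, at 117 to 300 RPF counts in S51 bortezomib.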
